A study of Mus musculus with 4 samples.

Results

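The mitochondrial carriers of the Slc25 family were described in 4 RNA-seq libraries of mouse T-helper 2 (Th2) primary cells. The members were all genes whose symbol is Slc25a followed by a number, which gave 47 of the 50600 genes in the tables. All 4 libraries belong to 1 group, cells of strain C57BL/6NJ labelled T-helper 2 and numbered 1 to 4 as biological replicates. There is no control, second cell type or treatment label. The labels name the RNA as total RNA and link a library protocol for polyadenylated RNA. Sex is given as not collected and age as unknown. Paths in the file headers name 24 hours, and the labels link a protocol for CD4 T cell differentiation. All 4 libraries carry the same donor record. Nothing says that the replicates came from separate animals, so the p-values measure only the spread between these libraries, which may be technical.

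Slc25 carriers sit mostly in the inner mitochondrial membrane, where each exchanges or imports a small solute such as ADP and ATP, phosphate, organic acids, amino acids, cofactors or iron. They link the cytosol to oxidative phosphorylation and to the synthetic routes that activated T cells use when they grow. The carriers are encoded in the nucleus and enter mitochondria through the TOM and TIM22 import complexes.

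The libraries held 1804217, 1846441, 2711948 and 2169955 counts in replicates 1 to 4. CT010467.1, a ribosomal RNA gene, made up 1.02%, 1.14%, 28.6% and 14.4% of them. Fragments were counted with strand setting 1. The 8189 genes whose exons overlap those of an opposite-strand gene by any number of bases held 93.8% ± 1.65 of the counts (SD, n = 4). mt-Nd6 of the mitochondrial light strand had 35801 to 49430 counts, against 4207 to 7040 summed over 12 heavy-strand coding genes. A count is therefore given below as a count on the strand selected and is not read as expression of the gene named. The same holds for each level, call and ratio made from counts, the marker genes included. Whether the strand selected is that of the transcripts was not tested. Levels in TPM divide those counts by exon length and set every library to an equal total. Of the T cell marker genes, 7 of 8 were called above 1 TPM, where 32.1% of all genes with a count were. The summed marker counts were 1120 to 1465 per library. Of these, 1073 to 1310 were in Cd247, which shares 3007 exon bases with the other strand. Of the 6 Th2 markers, Gata3, Il4 and Ccr4 were above 1 TPM, Il5 and Il13 had 1 count each and Il1rl1 had 0. The B cell markers summed to 9 to 15 counts, all of them in Cd79a, which shares no exon bases and was called above 1 TPM (limma, adjusted p = 5.2e-05), with Ms4a1 and Cd79b at 0. The erythroid markers summed to 31 to 39, all of them in Alas2, which shares 372 exon bases and was called above, with the globin genes at 0. The macrophage markers summed to 999 to 1039, mainly in Csf1r, which shares 871 exon bases with the other strand, with Adgre1 and Lyz2 at 0. Cd68, which shares none, had 13, 6, 7 and 18 of them, and both Csf1r and Cd68 were called above (limma, adjusted p = 1e-10 and 0.00029). The part of these markers in the carrier counts was not tested.

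Of the 47 carriers, 11 overlap an opposite-strand gene by at least 50 exon bases, 1 by 32 and the rest by none. For 4 of the 11, namely Slc25a10, Slc25a11, Slc25a25 and Slc25a46, the 5′ ends of both genes overlap and the opposite gene had counts. The windows from 250 bases before to 50 after the start, from RefSeq on GRCm38.p6, are shown for the first 3 and not for Slc25a46. The shared exon bases lie at or beside the windows shown. In them, capitals mark matches on either strand to the GC box GGGCGG, to the CCAAT box (spelled as its name) or to the ETS core CCGGAAG. None of the matches overlap.
Slc25a10: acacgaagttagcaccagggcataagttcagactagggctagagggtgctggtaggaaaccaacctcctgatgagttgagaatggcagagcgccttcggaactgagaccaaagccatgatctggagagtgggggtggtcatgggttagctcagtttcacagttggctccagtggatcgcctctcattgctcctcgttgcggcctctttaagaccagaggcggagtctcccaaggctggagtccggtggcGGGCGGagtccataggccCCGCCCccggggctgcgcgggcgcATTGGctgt
Slc25a11: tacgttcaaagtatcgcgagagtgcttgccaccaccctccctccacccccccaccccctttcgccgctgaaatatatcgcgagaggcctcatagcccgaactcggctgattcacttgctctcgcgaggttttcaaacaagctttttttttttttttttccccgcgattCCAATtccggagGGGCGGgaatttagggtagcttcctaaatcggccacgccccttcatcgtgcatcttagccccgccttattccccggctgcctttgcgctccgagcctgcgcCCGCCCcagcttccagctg
Slc25a25: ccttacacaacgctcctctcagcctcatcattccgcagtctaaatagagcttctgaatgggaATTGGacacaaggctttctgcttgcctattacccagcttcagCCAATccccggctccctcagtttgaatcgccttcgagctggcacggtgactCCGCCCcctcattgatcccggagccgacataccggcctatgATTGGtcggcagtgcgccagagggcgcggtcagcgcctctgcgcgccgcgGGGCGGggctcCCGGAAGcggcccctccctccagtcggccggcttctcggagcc
The windows lie at chr11:120491587-120491886 on the plus strand, chr11:70646990-70647289 on the minus strand and chr2:32451421-32451720 on the minus strand. The Slc25a11 window shares 295 bases with the RefSeq window of Rnf167, which reads the other way, so the same stretch lies at both starts. The RefSeq start of Slc25a11 lies 440 bases inside the gene as the tables draw it, and the exon shared with Rnf167 lies upstream of it. GC content was 59.7%, 57% and 63%, against a median of 52.7% over 32817 windows. Each window held 2 GC boxes. The CCAAT box was found 1, 1 and 3 times in this order, and the ETS core 1 time, in the Slc25a25 window. Of all windows, 35.6% held a GC box, 37.4% a CCAAT box and 8.86% the ETS core. The letters TATAAA, held by 13.6% of all windows, were not in these 3. A promoter window was found for 36 of the 47 carriers.

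The family as a whole had 1487, 1473, 1439 and 1164 counts in replicates 1 to 4. That was 0.0824% of the counts in replicate 1 (exact 95% interval 0.0783 to 0.0867), 0.0798% in replicate 2 (0.0758 to 0.0840), 0.0531% in replicate 3 (0.0504 to 0.0559) and 0.0536% in replicate 4 (0.0506 to 0.0568). With CT010467.1 left out of the totals, the shares were 0.0833%, 0.0807%, 0.0743% and 0.0627%, so the low share of replicate 3 moved with that gene. In bulk libraries fewer cells of a type and less RNA per cell cannot be told apart. Slc25a35 alone made up 71.0% ± 4.14 of the family's counts (SD, n = 4). The intervals and the floors below cover counting error only.

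Of the 47 carriers, 39 had a count in at least 1 library and 7 had a mean count of at least 10. That mean was reached by 14.9% of the carriers, 20.6% of protein-coding genes and 12% of all genes. The shares with 0 counts in every library were 17%, 43.3% and 66% in this order. The median carrier had a mean count of 2.5, against 0.5 for the 21764 protein-coding genes of the tables. A count of 0 allows up to 3 counts, which at these depths were 1.11 to 1.66 CPM per library, and 0.188 to 1.83 TPM depending on the carrier's length. Slc25a2, Slc25a21, Slc25a24, Slc25a31, Slc25a41, Slc25a43, Slc25a48 and Slc25a54 had 0 counts in every library. A level against 1 TPM was tested with limma on log2(TPM + 0.1), over all 17203 genes with a count, at an adjusted p under 0.05. It called 6 of the 39 carriers above 1 TPM (15.4%), where 32.1% of all genes tested were called above. The adjusted p of the 6 ran from 8.9e-11 for Slc25a35 to 0.037 for Slc25a4 (limma). It called 11 below (28.2%), where 26.6% of all genes tested were. The shares among protein-coding genes with a count were 28.7% above and 27.3% below. Calls were not compared between the substrate classes below, which hold few carriers each. Without any 1 replicate, 5 to 8 carriers were above and 5 to 7 below. Of the carriers called below that were followed singly, Slc25a10, Slc25a25 and Slc25a33 lost the call whichever replicate was left out. Slc25a36 lost it without replicate 2, 3 or 4 (limma, adjusted p = 0.064, 0.071 and 0.084) and Slc25a40 without replicate 3 (limma, adjusted p = 0.061). The other carriers called below were not followed singly, and the totals show that some of them lost the call too.

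**Figure D1:**
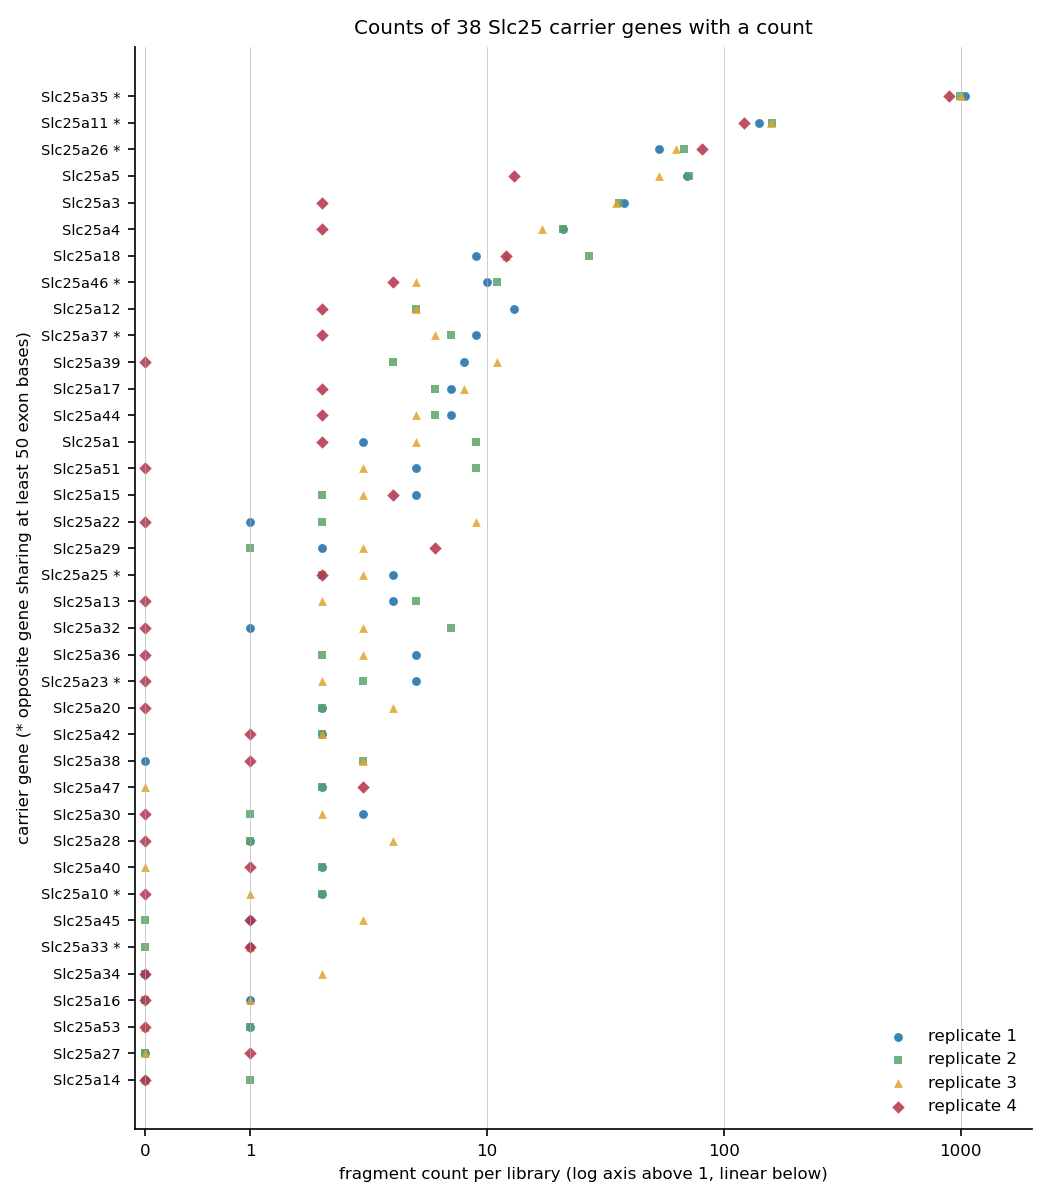
Fragment counts of 38 carriers with a count, 1 symbol per library, on an axis that is logarithmic above 1; an asterisk marks carriers with an opposite gene sharing at least 50 exon bases. Slc25a35 stands near 1000 in all 4 libraries, while most carriers lie under 10 and Slc25a3 and Slc25a4 fall to 2 counts in replicate 4.

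Slc25a35, an orphan carrier whose solute is not settled, had the highest count of the family. It lies at chr11:68968131-68974365 (plus strand; all positions are mm10) and had 1044, 991, 1000 and 895 counts, or 193 ± 34.4 TPM (SD, n = 4). It ranked 423 by mean count among all genes. Its counts lay within a narrow range, but the libraries differ in depth, and it had 578.6, 536.7, 368.7 and 412.5 CPM in replicates 1 to 4. The gene opposite, Rangrf, which encodes a factor that releases nucleotide from the Ran GTPase, had 21, 22, 15 and 11 counts. Both genes share 1151 exon bases in 4 blocks at chr11:68972484-68973843. None of these bases is coding in Slc25a35 by the GENCODE M21 annotation, and 555 are coding in Rangrf. They make up 31.3% of the Slc25a35 exon length and 90.7% of that of Rangrf, because 4 Rangrf exons lie inside the last exon of Slc25a35. Per exon base Slc25a35 was higher than Rangrf by 4.31 ± 0.23 on the log2 scale (SE; edgeR quasi-likelihood test, adjusted p = 3.51e-07), and higher in 4 of 4 libraries.

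**Figure D2:**
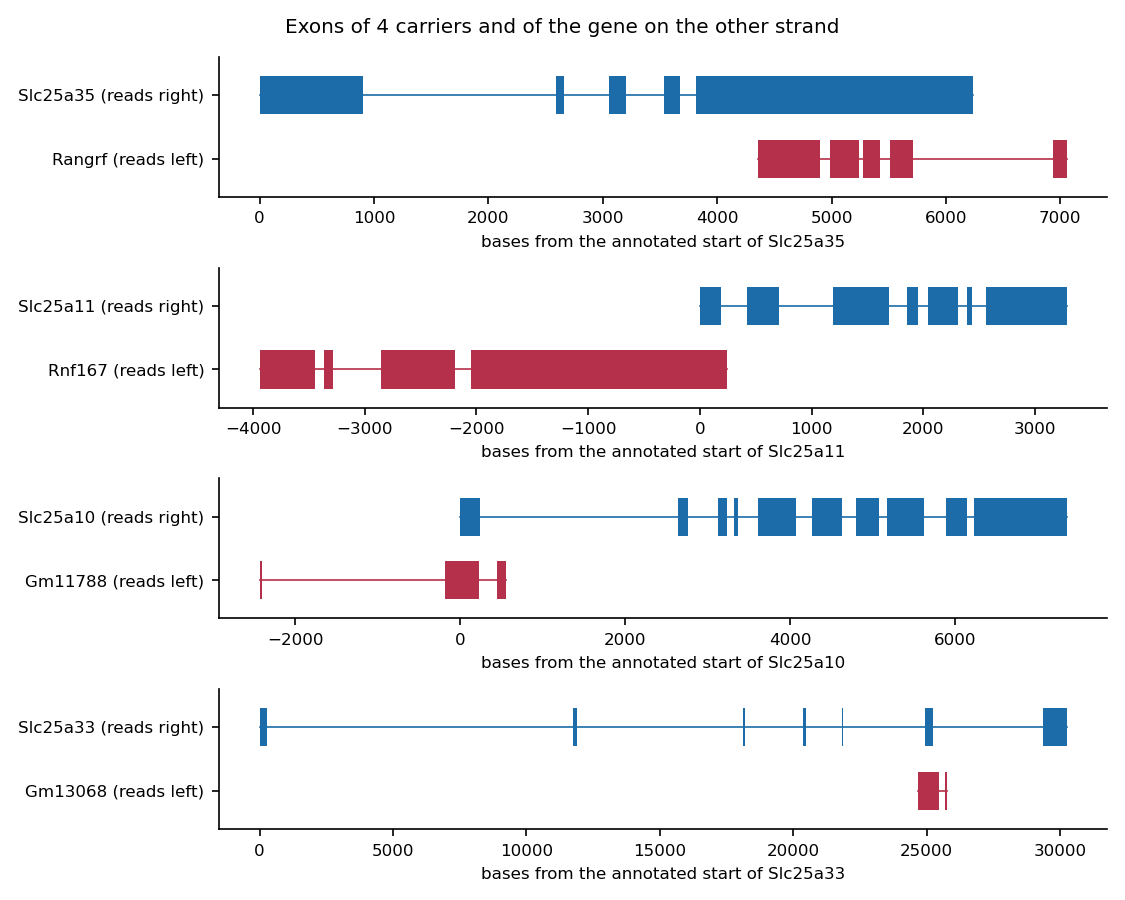
Exons as drawn in the count tables for 4 carriers (blue, upper row) and for the gene on the other strand (red, lower row), against distance in bases from the carrier's annotated start. The exons of Rangrf, all but its first, lie inside the last exon of Slc25a35, and Rnf167 and Gm11788 overlap the first exon of their carrier.

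Among carriers of organic acids, Slc25a11 was the only member of 4 called above 1 TPM, where 32.1% of all genes with a count were. Slc25a11, the 2-oxoglutarate and malate exchanger of the malate-aspartate shuttle, lies at chr11:70644196-70647479 (minus strand) and had 140, 160, 158 and 122 counts, or 49.3 ± 9.34 TPM. Its opposite gene Rnf167, a RING-type ubiquitin ligase, had 50, 51, 44 and 60 counts. Both genes share 189 exon bases at chr11:70647291-70647479, upstream of the RefSeq start of Slc25a11 and not coding in either. Per exon base Slc25a11 was higher than Rnf167 by 2.23 ± 0.23 (log2, SE; edgeR, adjusted p = 2.25e-05). Slc25a10, the dicarboxylate carrier, showed the reverse order, with 2, 2, 1 and 0 counts. Its opposite feature Gm11788, an antisense RNA gene, had 210, 210, 207 and 255. The fold of Slc25a10 over Gm11788 per exon base was -9.85 ± 0.42 (log2, SE; edgeR, adjusted p = 1.19e-07). Slc25a1, the citrate carrier, had 3, 9, 5 and 2 counts and shares no exon bases. Slc25a21, the oxodicarboxylate carrier, shares 189 bases with the transcription factor gene Pax9, and both had 0 counts in every library.

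Adenine nucleotide and phosphate carriers, which supply ADP and phosphate to ATP synthase, made up 9 members. Of them, 2 were above 1 TPM, 1 below and 4 at 0, where 32.1% of all genes with a count were above and 26.6% below. Slc25a5, the ADP/ATP translocase of dividing cells, lies at chrX:36795651-36798807 (plus strand) and had 70, 71, 53 and 13 counts, or 23.4 ± 13.95 TPM. Slc25a4, the translocase known from heart and muscle, lies at chr8:46206797-46211284 (minus strand) and had 21, 21, 17 and 2 counts, or 4.81 ± 3.12 TPM. Replicate 4 was the lowest library for both, and the Slc25a4 call was lost without replicate 1, 2 or 3 (limma, adjusted p = 0.14, 0.13 and 0.13) and with a variance fit that was neither trended nor robust (adjusted p = 0.082). Slc25a3, the phosphate carrier at chr10:91116574-91124059 (minus strand), had 38, 36, 35 and 2 counts, or 3.69 ± 2.42 TPM. It was not called (adjusted p = 0.17), but was above 1 TPM without replicate 4 (limma, adjusted p = 4e-05). None of these 3 genes shares exon bases with the other strand. Slc25a5-ps, a processed pseudogene of Slc25a5, is counted apart, and fragments that such copies share cannot be assigned from these tables.

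The calcium-regulated ATP-Mg/phosphate carriers had few counts of their own. Slc25a25 had 4, 2, 3 and 2 counts, and was called below 1 TPM (limma, adjusted p = 0.038), a call lost without any 1 replicate (adjusted p = 0.091 to 0.16). Opposite it, Naif1, which encodes a nuclear factor known for inducing apoptosis, had 137, 159, 157 and 319 counts. They share 379 bases at chr2:32451067-32451445, of which 258 are coding in Slc25a25. The fold of Slc25a25 over Naif1 was -6.76 ± 0.37 (log2 per exon base, SE; edgeR, adjusted p = 4.01e-07). Slc25a23 had 5, 3, 2 and 0 counts, and the antisense gene Gm17168 opposite its 3′ part had 113, 108, 96 and 117. Here the fold was -9.28 ± 0.52 (log2 per exon base, SE; edgeR, adjusted p = 4.44e-07).

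Amino acid carriers numbered 9, with 1 called above 1 TPM, 0 below and 1 at 0. Among all genes with a count the shares were 32.1% above and 26.6% below. The 1 above was Slc25a18, a glutamate carrier at chr6:120773578-120794336 (plus strand), with 9, 27, 12 and 12 counts, or 5.76 ± 3.63 TPM. Its 3′ end shares 32 bases with Atp6v1e1, a subunit of the proton pump of lysosomes, which had 6, 17, 12 and 0 counts. The pair was under the limit of 50 bases and was not tested. Slc25a22, the other mitochondrial glutamate carrier, had 1, 2, 9 and 0 counts. The aspartate-glutamate carriers of the malate-aspartate shuttle also had few counts: Slc25a12 had 13, 5, 5 and 2 and Slc25a13 had 4, 5, 2 and 0. Neither shares exon bases.

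Carriers of cofactors, nucleotides and lipid precursors numbered 10, with 1 above 1 TPM and 4 below, namely Slc25a16, Slc25a33, Slc25a36 and Slc25a42. Among all genes with a count, 32.1% were above and 26.6% below. Slc25a26, which imports the methyl donor S-adenosylmethionine, lies at chr6:94500331-94604672 (plus strand) and had 53, 68, 63 and 81 counts, or 9.85 ± 1.70 TPM. Replicate 4 was the highest library for it. Lrig1, a membrane protein that restrains growth factor receptors, lies opposite its 3′ end and had 25, 16, 43 and 36 counts. They share 144 bases at chr6:94604529-94604672, not coding in either, and Slc25a26 was higher per exon base by 1.41 ± 0.32 (log2, SE; edgeR, adjusted p = 0.00323). Slc25a33, a pyrimidine nucleotide carrier, had 1, 0, 1 and 1 counts, and the antisense gene Gm13068 had 323, 305, 293 and 358. The fold of Slc25a33 over Gm13068 was -9.55 ± 0.36 (log2 per exon base, SE; edgeR, adjusted p = 8.28e-08). All 281 bases that Slc25a33 and Gm13068 share are coding in Slc25a33. Slc25a36, the other pyrimidine nucleotide carrier, had 5, 2, 3 and 0 counts.

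Iron and glutathione carriers numbered 4, with 0 above 1 TPM and 1 below, Slc25a40, where 32.1% and 26.6% of all genes with a count were. Slc25a37, the mitoferrin of red cell precursors, had 9, 7, 6 and 2 counts. Its opposite features Gm31748 and Gm27223 had 0 in every library. Slc25a37 was called higher than Gm31748 per exon base (edgeR, adjusted p = 0.0498), and the exact 95% interval of their ratio over the summed counts began at 1.496. That call was lost without replicate 1, 2 or 3 (edgeR, adjusted p = 0.11, 0.097 and 0.1) and with DESeq2 (adjusted p = 0.11). For Gm27223 the test made no call (edgeR, adjusted p = 0.137), and the interval began at 0.606, which sets no direction. Slc25a28, the mitoferrin of other tissues, had 1, 1, 4 and 0 counts. Slc25a39, which imports glutathione, had 8, 4, 11 and 0, and its paralog Slc25a40 had 2, 2, 0 and 1.

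Carriers in no substrate class and those like uncoupling proteins had few counts, apart from Slc25a35. Slc25a46, an outer membrane protein that acts in mitochondrial shape, had 10, 11, 5 and 4 counts, and B930094E09Rik opposite its 5′ end had 400, 495, 458 and 729. The fold of Slc25a46 over B930094E09Rik was -7.87 ± 0.38 (log2 per exon base, SE; edgeR, adjusted p = 1.93e-07). Of the 3 uncoupling protein-like members, Slc25a14 and Slc25a27 were called below 1 TPM with 1 count each over the 4 libraries. Among all genes with a count, 26.6% were called below. In all, 32 carriers had a count and a mean under 10, with 1 to 30 counts over the 4 libraries. Of these, 4, 5, 5 and 15 were at 0 in replicates 1 to 4. Over all genes, 13705, 13900, 14083 and 12398 had a count in these libraries. The share at 0 among other genes of few counts was not computed.

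**Figure D3:**
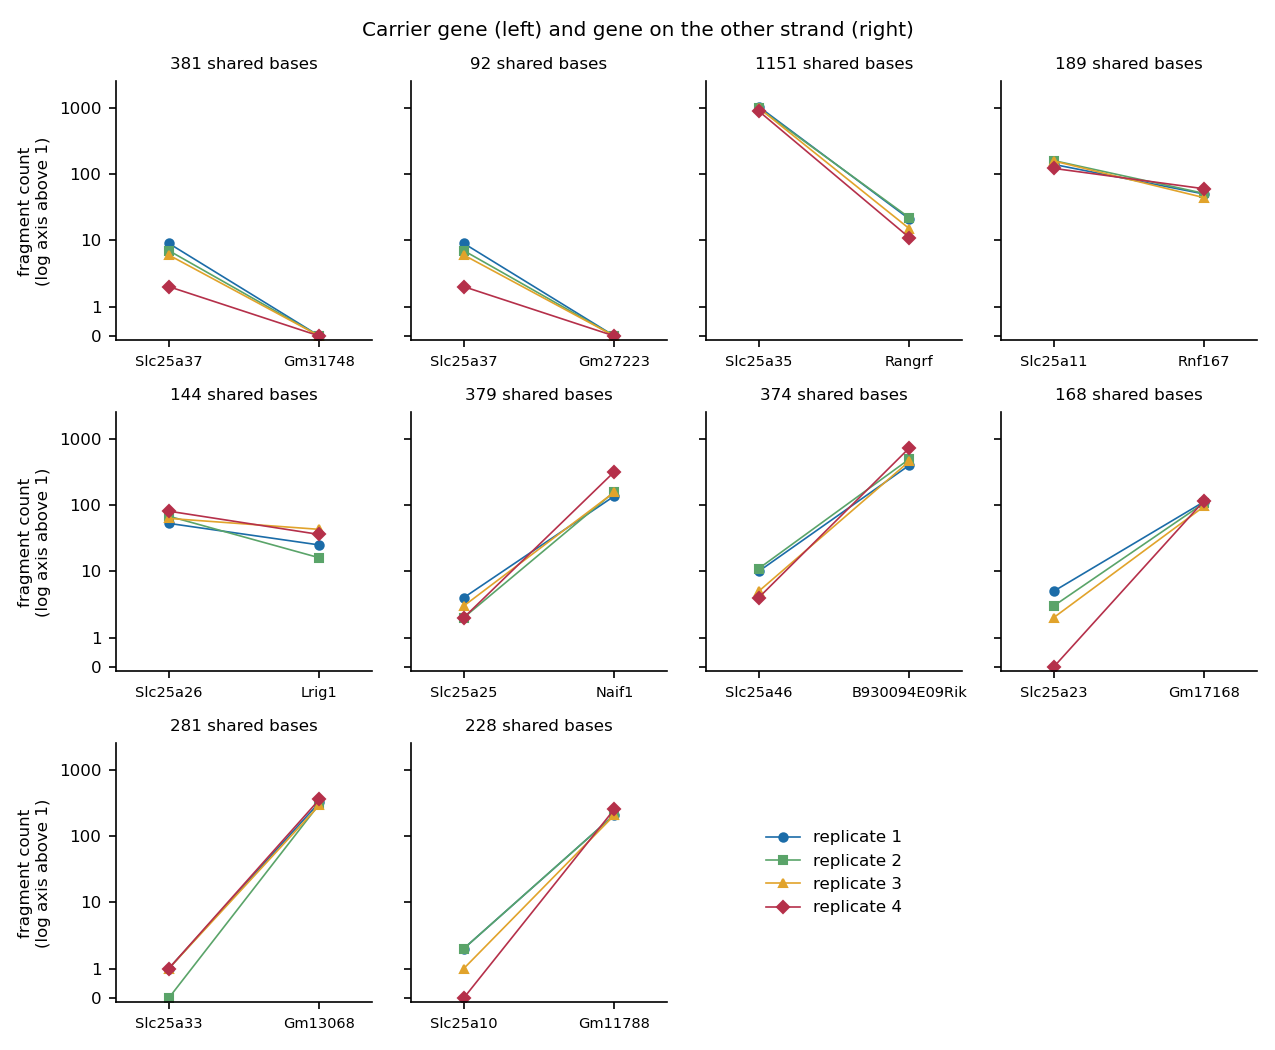
Fragment counts of each carrier (left) and of the gene opposite (right) in 10 pairs that share at least 50 exon bases and had a count, with 1 line per library and an axis logarithmic above 1. The lines fall to the right for Slc25a37, Slc25a35, Slc25a11 and Slc25a26 and rise for the other 5 carriers, in each of the 4 libraries.

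Over the carrier pairs, the carrier was called lower in 6 and higher in 4 of 11 tested per exon base. Among 3001 pairs of all genes, 89.2% were called in either direction, so a call by itself was the usual outcome of this test. Of the 6 carrier pairs with an opposite gene that is not protein-coding, 4 had the carrier lower, where 80.2% of 1731 such pairs had the protein-coding gene lower, and 1 had it higher, where 9.65% did. Of the 5 with a protein-coding opposite gene, 5 were called in either direction, and 89.0% of 1096 such pairs were. The median size of the fold was 6.76 on the log2 scale in carrier pairs and 5.36 in all pairs. Counts are not split by exon, so it is not known which fragments fell in the shared bases. Of the carriers, 23.4% have such an opposite gene, and of the protein-coding genes 20.2% do.

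Carriers of like solute were compared within each library on log2(TPM + 0.1), in 8 pairs, and a two-sided exact permutation test over sign changes was used. The smallest p that 4 libraries allow is 0.13, so no pair could pass 0.05. Slc25a5 over Slc25a4 was 2.41 ± 0.40 (SD, n = 4), above 0 in 4 of 4 libraries (exact permutation p = 0.13, 0.25 adjusted over the 8 pairs). Slc25a1 over Slc25a10 was 2.24 ± 0.78, also above 0 in 4 of 4 (exact permutation p = 0.13, adjusted 0.25). Slc25a22 over Slc25a18 was -4.10 ± 1.54 and below 0 in each library (exact permutation p = 0.13, adjusted 0.25). Slc25a24 was at 0 in every library, and its ratio to Slc25a25 per exon base, over the summed counts, had an exact 95% interval of 0 to 0.913. Slc25a39 over Slc25a40 was 2.24 ± 2.31, above 0 in 3 of 4 libraries. The other 3 pairs were within their spread: Slc25a13 over Slc25a12 at -0.41 ± 0.97, Slc25a37 over Slc25a28 at 0.54 ± 1.28, and Slc25a33 over Slc25a36 at 0.34 ± 1.49. On CPM, not per length, these 3 were -1.56, 2.37 and -1.14 in this order, and Slc25a39 over Slc25a40 was 1.43. The adjusted exact permutation p on CPM was 0.2 or more in all 8 pairs. Over the 4 libraries summed, Slc25a5 had 4.85 times the counts of Slc25a4 per exon base (95% exact conditional interval 3.63 to 6.57).

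Replicate 4 stood apart from the others at carriers without an opposite gene. The 36 carriers without one had 214, 228, 198 and 55 counts in replicates 1 to 4, or 119, 124, 73.0 and 25.4 CPM. The 10 other than Slc25a35 with one had 229, 254, 241 and 214 counts, or 127, 138, 88.9 and 98.6 CPM. Replicate 4 was therefore lowest in the first set, and replicate 3, the library with the highest share of CT010467.1, in the second. With CT010467.1 left out of the totals the first set had 120, 125, 102 and 29.6 CPM and the second 128, 139, 125 and 115.

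The deviation of a replicate was its log2 CPM minus the mean of the other 3, scored where each of those had 10 counts or more. In replicate 4, 6 carriers could be scored and 3 were more than 1 lower, where 28.0% of 5463 genes were, and 0 were more than 1 higher, where 2.16% were. Slc25a3 deviated by -3.94, Slc25a4 by -3.07 and Slc25a5 by -2.32. Slc25a35 deviated by -0.24, Slc25a11 by -0.38 and Slc25a26 by 0.35. Genes of the whole tables that share no exon bases had a median of -1.24 in replicate 4, with 55.9% of 2115 more than 1 lower. Genes that share at least 50 bases had a median of -0.055, with 9.52% of 3150 lower. In replicate 1 the deviation of Slc25a5 was 1.22 and in replicate 2 it was 1.20. Slc25a5 was the only scored carrier more than 1 higher in either, where 2.03% and 5.52% of all genes were. In both cases the other 3 libraries include replicate 4, where Slc25a5 had 13 counts. These values are therefore not separate from its low count there. Slc25a3 and Slc25a4 could not be scored in replicates 1 to 3, because each had 2 counts in replicate 4. Slc25a18 could be scored in replicate 1 only, because it had 9 counts there. No scored carrier was more than 1 lower in replicate 1 or 2, where 1.21% and 0.917% of genes were. With CT010467.1 left out of the totals the Slc25a5 values were 0.99 and 0.97. In replicate 3 no scored carrier passed 1 in either direction, where 5.48% of genes were lower and 0.247% higher. Among the 9 opposite genes with enough counts, the deviation in replicate 4 ran from -0.83 for Rangrf to 1.02 for Naif1.

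**Figure D4:**
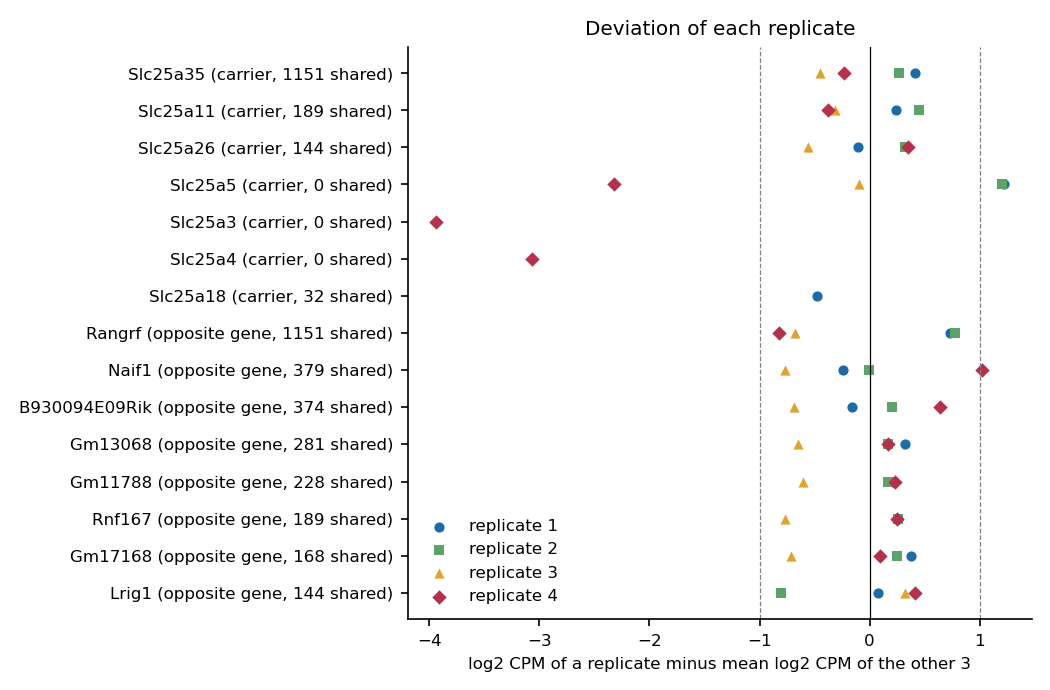
Deviation of each replicate, as log2 CPM minus the mean of the other 3 libraries, for carriers and for opposite genes with enough counts; dashed lines stand at -1 and 1. Slc25a3, Slc25a4 and Slc25a5, which share no exon bases, lie between -3.94 and -2.32 in replicate 4, while Slc25a35, Slc25a11 and Slc25a26 lie between -0.38 and 0.35.

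Other genes of the mitochondrial membranes gave the setting for these counts. Of 22 other carriers and channels, 2 were called above 1 TPM, 4 below and 1 had 0 counts. Of all genes with a count, 32.1% were above and 26.6% below. Vdac1 and Vdac2, channels of the outer membrane, had 5.83 ± 2.74 and 4.35 ± 2.10 TPM, and the uncoupling protein gene Ucp2 had 9, 26, 20 and 7 counts with 305 shared bases. Of 16 genes of the TOM and TIM22 route that imports carriers, 8 were above and 1 below. Timm10b had 67.2 ± 11.4 TPM, and shares 416 bases with the other strand, while Tomm70a, the receptor for carrier precursors, had 7.20 ± 3.00 TPM and shares none. Of 12 genes of the TIM23 route, which imports proteins with a presequence, 6 were above and 0 below. Dnajc19 had the highest count there, with 898, 958, 859 and 859 counts and 178 shared bases. Hspa9, the motor chaperone of that route, had 139, 159, 112 and 22 counts with none shared. The median level was 0.442 TPM for the carriers, 0.786 TPM for the other carriers and channels, 2.90 TPM for the TOM and TIM22 route and 2.61 TPM for the TIM23 route, with no test between lists.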

How the data were processed

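RNA was measured in 4 libraries of Th2 cells. Per the file headers, the authors used featureCounts 1.4.6-p4 with strand setting 1 on paired fragments whose ends both aligned. Exons came from GENCODE M13 and were summed per gene. Alignments are named star2 there, with no version, and the labels give mm10. The deposited values are raw counts, not normalized. TPM was computed here from counts and the exon lengths in the tables.

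Symbols were matched for 50376 of 50600 gene IDs. Exons were merged from the tables, and bases shared with the other strand were summed, a step checked on a made-up locus. Coding bases came from GENCODE M21, on the same build. Levels were tested with limma 3.58.1 (trended, robust, two-sided). Pairs were tested with edgeR 4.0.16, with library as a term and offsets of library total and exon length, over pairs with at least 10 counts. Both used Benjamini-Hochberg adjustment, were fitted on the whole tables and were tested on simulated data. The simulation drew every library from the same levels and set known levels in longer genes only. It therefore does not cover the differences between replicates given below, or levels of short genes. Alternatives used DESeq2 1.42.0. Scripts ran in R 4.3.3 and in Python 3.11.15, with scipy 1.17.1 for intervals.

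Members, substrate classes and lists were chosen with earlier results of these data known. Values were named for carriers whose mean count reached 10, that have an opposite gene or that belong to a pair of like solute. Replicates differed by more than sampling noise. The chi-square per degree of freedom was 2.23 between replicates 1 and 2, and 30.9 to 69.5 in every pair with replicate 3 or 4. Totals without CT010467.1 were chosen after seeing the data. For 1 carrier and its opposite gene, and for some marker genes, single values are not reported here, while counts over the family include them.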

Additional observations from a re-analysis of the deposited data

Results flagged for a closer look

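Among 16 carriers and opposite genes with a mean count of at least 10, 3 had a library far from the other 3 on CPM. Chance flags about 1 in 20 such groups. Slc25a18 was highest in replicate 2, at 14.6 CPM, with 27 counts against 9 to 12 in the others. Gm11788 was lowest in replicate 3, at 76.3 CPM, and so was Rnf167, at 16.2 CPM. Their counts in replicate 3 were 207 and 44, and CT010467.1 held 28.6% of that library's counts. With CT010467.1 left out of the totals, the log2 deviation of replicate 3 from the other libraries was -0.20 for Gm11788 and -0.37 for Rnf167, and with it -0.60 and -0.77.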

How the results depend on the processing

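Carriers called above 1 TPM numbered 6, and 5 to 8 under the alternatives that kept this level. Against 0.5 TPM 9 were called above, and against 2 TPM 5 were. Carriers called below numbered 11, but 0 with a mean count of at least 10 and 24 with no filter. They numbered 6 at a level of 0.5 TPM, 26 at 2 TPM and 5 to 7 without any 1 replicate. These filters and levels change which genes are tested or the value tested. With a pseudocount of 0.5 or 1 the number below was 15, and with a variance fit neither trended nor robust 16. With TMM factors it was 10 and without CT010467.1 9. The pseudocount sets the value tested in a library with 0 counts. Pairs with the carrier higher were 4, and 2 with at least 200 shared bases, where fewer pairs are tested. DESeq2 and limma gave 6 pairs lower and 3 and 4 higher. Without library as a block (no replicate block) they were 6 and 4. No paired analysis between groups was possible because there is 1 group. The Slc25a5 deviation above 1 in replicates 1 and 2 was the only one among the carriers scored there. With TMM factors or without CT010467.1, 0 carriers passed. With at least 20 counts in each other library 0 passed too, but Slc25a5 could not be scored there. It had 13 counts in replicate 4, so that setting is no second test of it. Slc25a33 over Slc25a36 turned to -1.14 on CPM and to -0.28 without replicate 4, with a range of -0.28 to 0.92 over the replicates left out. The cause was not tested.

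Levels near 1 TPM changed sign, with no call in the alternatives that reversed them. Testing against 0.5 or 2 TPM moves every difference, so a sign change in those settings follows from the level chosen. Slc25a46 was at -0.77 against 2 TPM, and at -0.057 and -0.089 without replicates 1 and 2, with a range of -0.089 to 0.43 over the replicates left out. Slc25a12 was at 0.033 and Slc25a37 at 0.31 against 0.5 TPM. Slc25a39 was at 0.64 there, at 0.11 and 0.15 with pseudocounts of 0.5 and 1, and at 0.84 without replicate 4, where the values over the replicates left out began at -0.70. Slc25a1 was at -0.54 against 2 TPM and at -0.011 without replicate 2, where the values over the replicates left out reached 0.73. Against 0.5 TPM it was at 1.27 and was called above that level (limma, adjusted p = 0.049). Carriers of 1 to 30 counts over the 4 libraries allow no firm order.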
